A study of Mus musculus with 2 samples.

Results

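The cells described here were macrophages of the mouse adrenal gland with high MHC class II RNA in which Tmem119, Col14a1 and Zmynd15 together outnumbered the genes of neighbouring macrophages. They were chosen from raw counts of unique molecular identifiers (UMIs, each standing for 1 captured RNA molecule). A barcode entered the gate with at least 200 genes, at most 15% mitochondrial UMIs, 5 or more UMIs of C1qa, C1qb and C1qc, at most 2 of Lyve1, Folr2, Cbr2 and Fcna, fewer than 5 of Retnla, no Cd79a and no Cd3e. It also needed more than 10 class II UMIs (H2-Aa, H2-Eb1, H2-Ab1 and Cd74) in every 1000. A gated cell was a member when its summed UMIs of Tmem119, Col14a1 and Zmynd15 were at least 1 and above both its sum of Mmp12, Slc40a1 and Hpgds and its Cxcl14 count. The rule found 274 members among 6319 passing barcodes, 96 in the female and 178 in the male library. Gated cells in which the sum of Mmp12, Slc40a1 and Hpgds led in the same way, 281 female and 255 male, are called Mmp12-led cells and served for comparison.

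Tissue macrophages clear dying cells, sense their surroundings through surface receptors and display peptides to CD4+ T cells on MHC class II molecules. Class II genes are switched on together by the coactivator Ciita, and invariant chain (Cd74), H2-DM and the protease cathepsin S load and trim the peptides. Tmem119 encodes a membrane protein best known as a marker of microglia, the macrophages of the brain. Col14a1 encodes a fibril-associated collagen usually studied in connective tissue, and Zmynd15 a zinc finger protein studied as a repressor in germ cells. In the neighbouring cells, Mmp12 encodes macrophage elastase, Slc40a1 the iron exporter ferroportin and Hpgds a prostaglandin D2 synthase.

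The study asked how adrenal immune cells differ between the sexes. CD45+ cells were sorted from adrenal glands of 7-week-old C57BL/6 mice after dead cells had been excluded with a dye, and 1 droplet library was made from female and 1 from male animals. No transgene or treatment is named for either group, and how many contributed to each library was not stated. With 1 library per sex, no difference between sexes was tested, and sex cannot be told apart from library.

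The female library held 3963 barcodes with a median of 3432 UMIs and the male library 2685 barcodes with a median of 2777, and 3817 and 2502 of them passed the filters on genes and mitochondrial UMIs. Members had a median of 4044 UMIs in the female and 3656 in the male library, close to the 4070 and 3968 of Mmp12-led cells. Across members, Xist had 625 UMIs in the female and 0 in the male library, and 4 Y-linked genes had 0 and 95. No barcode sequence was shared between female and male members. All intervals given below are 95% intervals that cover counting error only.

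The genes used for the choice are given first, as a description. Tmem119 (ENSMUSG00000054675, mm10 chr5:113793729-113800516, minus strand) was at 225 CPM (UMIs of the gene in every 1000000 UMIs of the summed cells) in female and 309 CPM in male members, against 76.9 and 88.0 CPM in Mmp12-led cells. Col14a1 (chr15:55307750-55520803, plus strand) was at 180 and 201 CPM in members and at 85.0 and 69.5 CPM in Mmp12-led cells. Zmynd15 (chr11:70459433-70466202, plus strand) was at 221 and 351 CPM against 97.6 and 117 CPM. These RNAs were thus more frequent in members in both libraries, and were still present in Mmp12-led cells. In the other direction, Mmp12 was at 91.0 and 121 CPM in members and 748 and 721 CPM in Mmp12-led cells. Slc40a1 was at 20.7 and 36.9 against 310.4 and 300.0 CPM. The ferroportin RNA showed the widest gap of the genes that the rule compared. Cxcl14, a chemokine that led in 30 female and 18 male gated cells instead, was alike in members (78.6 and 69.6 CPM) and in Mmp12-led cells (79.8 and 66.9 CPM).

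**Figure D1:**
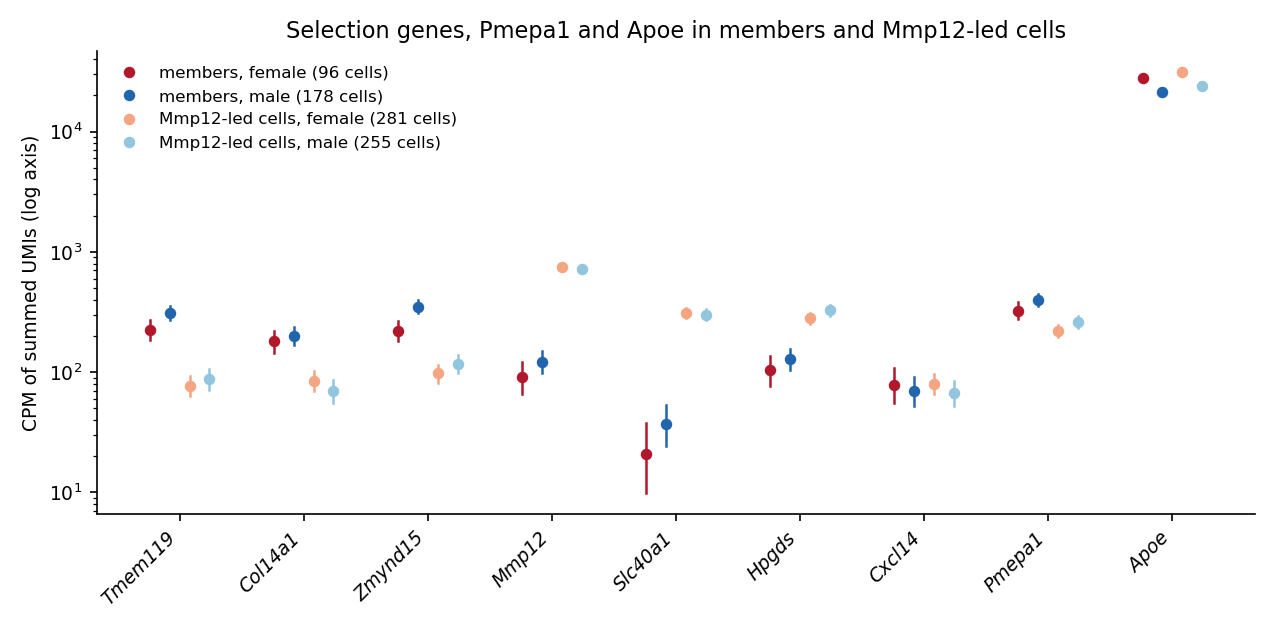
CPM of summed UMIs on a log axis for Tmem119, Col14a1, Zmynd15, Mmp12, Slc40a1, Hpgds, Cxcl14, Pmepa1 and Apoe, in members and Mmp12-led cells of each library. Points are the summed value of 1 library and lines the 95% counting intervals. Tmem119, Col14a1 and Zmynd15 lie higher in members, Mmp12, Slc40a1 and Hpgds lower, and Apoe lies slightly lower in members (27983 against 31128 CPM in the female library).

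Apoe, the lipid-carrying apolipoprotein named as a marker of these cells, was not used by the rule and did not set members apart. It was at 27983 CPM in female and 21214 CPM in male members, and at 31128 and 23824 CPM in Mmp12-led cells, so that the ratio of members to Mmp12-led cells was 0.90 (0.88 to 0.92) and 0.89 (0.87 to 0.91). It was the lowest in male Cxcl14-led cells, at 7976 CPM.

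Membership rested on few molecules per cell. Of the female members, 26 of 96 had 1 UMI of the trio of Tmem119, Col14a1 and Zmynd15, and of the male members 52 of 178. The trio led by a single UMI in 56 female and 84 male members, and no member had more than 11 (female) or 15 (male) UMIs of it. Just outside the rule, 40 female and 56 male gated cells had a UMI of the trio but were tied with another sum. Another 88 and 126 gated cells had no UMI of any gene that was compared. At the class II boundary, 12 female and 2 male members lay between 10 and 15 class II UMIs in 1000, and 12 female and 2 male cells led by the trio lay between 5 and 10. The boundary therefore ran through a populated range in the female library and a sparse one in the male library.

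No single gene of the trio was found in every member. Tmem119 was seen in 65 of 96 female members (67.7%) and 104 of 178 male members (58.4%). Col14a1 was seen in 52 and 84 members, and Zmynd15 in 51 and 103. All 3 genes were seen together in 16 female and 22 male members, while 40 and 87 members had 1 of them. Over all gated cells, chosen or not, Tmem119 was detected in 29.4% of female and 30.3% of male cells. In B and T cell barcodes of the same libraries, which should lack it, it was detected in 0.354% and 0.356%, at median depths of 3528 and 3040.5 UMIs against 3722 and 2850.5 in gated cells. After 1000 UMIs were drawn from each cell, Tmem119 was in 11.6% of female and 14.2% of male gated cells. In lymphoid barcodes it was then in 0.0896% (1 of 1116) and 0 of 546, the latter with an upper limit of 0.673% for detection at this depth. Col14a1 was in 28.7% and 25.2% of gated cells against 0.619% and 0.534% of lymphoid barcodes before drawing, and Zmynd15 in 27.6% and 33.1% against 0.354% and 0.178%. Each of these 3 RNAs was thus far more frequent in gated macrophages than in lymphoid barcodes of the same libraries.

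The 3 genes were found in the same gated cells more often over all UMIs than after equal numbers of UMIs had been drawn. Over all UMIs of the gated cells, a cell with Tmem119 had Zmynd15 in 44.4% of cases and a cell without it in 20.6% in the female library (difference 23.8 points, 15.2 to 32.4), and in 42.5% and 29.0% in the male library (13.5 points, 5.44 to 21.6). Col14a1 was 16.0 points (7.48 to 24.8) and 15.1 points (7.51 to 22.9) more frequent with Tmem119 than without it. When 2000 UMIs were drawn from each cell, 434 of 544 female and 402 of 638 male gated cells were deep enough to be kept. The differences then ranged from 2.56 to 5.79 points in the female library and from -0.667 to 6.47 points in the male library, and all 6 intervals included 0. Drawing left out the shallower cells and lowered detection, and in the cells kept a shared pattern of the 3 genes was not detectable at this depth.

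Members made up a smaller share of the gate in the female than in the male library. They were 17.6% of 544 female (14.5 to 21.1%) and 27.9% of 638 male gated cells (24.5 to 31.6%), a difference of -10.3 points (-14.9 to -5.47). The rule compared the trio with Mmp12, Slc40a1 and Hpgds, and Mmp12-led cells took the larger share in both libraries, 51.7% in the female and 40.0% in the male. Of the cells led by either set of genes, members were 25.5% (21.1 to 30.2%) in the female and 41.1% (36.4 to 45.9%) in the male library. Among all passing barcodes they were 2.52% and 7.11%. These shares rest on values that the rule used and are a description, and the spread between animals is not known.

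The class II boundary took very different shares of the trio-led cells in each library. In the female library 78 of 174 cells led by Tmem119, Col14a1 and Zmynd15 lay at or below it (44.8%, 37.3 to 52.5%), against 9 of 187 in the male library (4.81%, 2.22 to 8.94%). Of cells led by Mmp12, Slc40a1 and Hpgds, 50 of 331 female (15.1%, 11.4 to 19.4%) and 13 of 268 male cells (4.85%, 2.61 to 8.15%) lay at or below it. Within the female library the 2 kinds of cells differed by 29.7 points (21.4 to 37.9), and within the male library by -0.0379 points (-4.01 to 4.5). The lead and the boundary are both values that the rule used, so these shares and differences are a description and not a test. Counted on both sides of the boundary, cells led by the trio numbered 174 in the female and 187 in the male library.

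The class II level is the value that the boundary cuts, and its spread is likewise given as a description and not a test. Female members had a median of 35.4 class II UMIs in 1000 (quartiles 19.4 and 55.2) and male members 55.0 (quartiles 35.3 and 72.0). In Mmp12-led cells the medians were 45.5 and 51.6. On both sides of the boundary together, trio-led cells had a median of 13.8 in the female and 53.8 in the male library, and cells led by Mmp12, Slc40a1 and Hpgds 40.0 and 50.7. Female trio-led cells were the only 1 of these 4 sets with a median under 40.

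**Figure D2:**
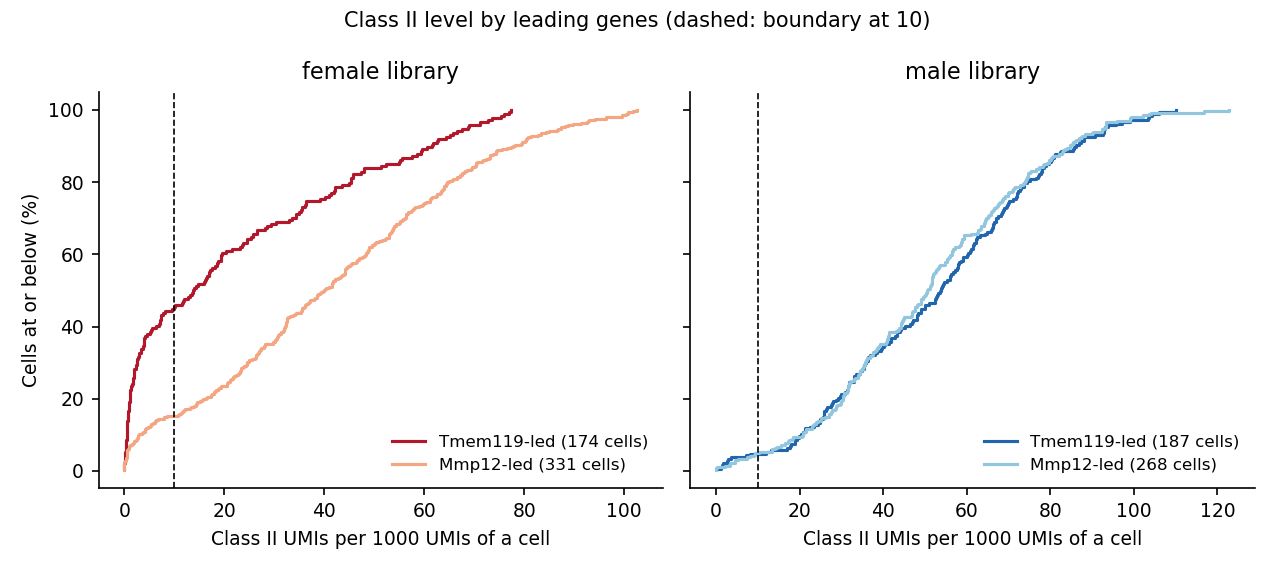
Cumulative share of cells (percent, vertical axis) by class II UMIs per 1000 UMIs of a cell (horizontal axis), for cells led by Tmem119, Col14a1 and Zmynd15 and cells led by Mmp12, Slc40a1 and Hpgds, with the boundary of 10 dashed. In the female library the curve of trio-led cells has reached 44.8% at the boundary and that of Mmp12-led cells 15.1%, while the curves of the male library run close together.

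Members had the RNA of macrophages. All 8 macrophage markers outside the rule were detected in both libraries, led by Lyz2 (lysozyme) at 7529 CPM in female and 5871 CPM in male members and followed by Aif1, the Iba1 protein of microglia and macrophages, at 924 and 1211 CPM. Csf1r, the receptor for the macrophage growth factor CSF-1, was at 759 and 872 CPM, and Adgre1, which encodes F4/80, at 380 and 345 CPM. The efferocytosis receptor Mertk was the lowest of the 8, at 57.9 CPM (28 UMIs) in female and 69.6 CPM (51 UMIs) in male members, and lower than in Mmp12-led cells at 0.48 (0.31 to 0.72) and 0.65 (0.46 to 0.91) times. The median log2 ratio of the 8 markers between members and Mmp12-led cells was -0.01, beside -0.03 over all 4367 genes compared.

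Tmem119 did not come with the whole set of microglia genes. Sall1, a transcription factor that defines microglia, had 0 UMIs in members of both libraries, which allows up to 6.2 CPM in the female and 4.1 CPM in the male members. The fructose transporter Slc2a5 was also at 0 in both. P2ry12, the microglial ADP receptor, was at 16.5 and 23.2 CPM. The fractalkine receptor Cx3cr1, which other macrophages share with microglia, was plentiful at 941 and 975 CPM. Of the 14 microglia-linked genes, 8 could be compared with Mmp12-led cells, none differed by 1.5-fold in both libraries, and their median log2 ratio was 0.03. Col14a1 did not come with fibroblast RNA either. Col1a1, Col1a2, Col3a1, Dcn and Pdgfra together gave 8.27 CPM in female members and 0 in male members, against 180 and 201 CPM of Col14a1.

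Some female member barcodes carried RNA of other blood cells. NK cell genes (Ncr1, Klrb1c, Gzma and Nkg7) summed to 707 CPM in female and 27.3 CPM in male members, and 5 female members and no male member had 3 or more UMIs of them. Those 5 barcodes had a median of 14853 UMIs, against 4044 over all female members. Counting also barcodes with 10 or more UMIs of the neutrophil genes S100a8 and S100a9 or of the monocyte genes Ly6c2, Chil3 and Plac8, 8 of 96 female and 0 of 178 male members carried such RNA, as did 22 female and 6 male Mmp12-led cells. No doublet filter was applied for the values given here, and Scrublet, which scores barcodes against simulated doublets, marked 5 female members, 4 of which carried such RNA, and 1 male member. For each comparison, the number of genes that differed is also given without these barcodes, a choice made after the values were seen, and shares and list medians are of all members. Whether these barcodes held 2 cells was not tested. B cell genes outside the rule summed to 364 and 329 CPM and T cell genes to 80.6 and 13.7 CPM. Adrenal cortex genes, which belong to steroid-making cells, summed to 221 and 231 CPM in members, beside 217 and 147 CPM in Mmp12-led cells, and the source of this RNA was not tested.

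Few genes beyond those that chose them were counted as different between members and Mmp12-led cells, and most of those were lower in members. A gene was counted when it differed at least 1.5-fold in the same direction in both libraries, after 10 CPM was added to each value, with the interval of the ratio on the same side of 1 in each. Of 4367 genes with at least 50 UMIs over both kinds of cells in each library, 2 were higher (0.0458%) and 31 were lower (0.71%) in members. Since both kinds of cells were chosen on counts of these same cells, this is a description and not a test. A gene could pass the floor through Mmp12-led cells alone, which held 1352982 female and 1136649 male UMIs against 483728 and 732571 in members, and the part of the floor in the balance of 31 to 2 and in the list counts that follow was not tested. Without the barcodes carrying NK cell, neutrophil or monocyte RNA, 3892 genes were compared, and 0 were higher and 22 lower, 18 of them among the 31.

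The 2 higher genes were sparse. Erlec1, a lectin of the endoplasmic reticulum, had 22 female and 29 male UMIs in members and was 2.12 (1.16 to 3.82) and 1.87 (1.05 to 3.36) times as frequent as in Mmp12-led cells. Hsph1, a heat shock protein of the HSP110 family, had 40 and 31 UMIs and ratios of 1.72 (1.13 to 2.59) and 1.85 (1.06 to 3.24), but its log2 ratio was -0.58 in the female library, the opposite direction, when the class II boundary was set at 20. The 10 genes next in order, none of which met the criterion in both libraries, were Stim1, Mgst3, Eng, Pmepa1, Chchd3, Ndufs8, Ebi3, Abce1, Utp18 and Jaml. Pmepa1, a feedback inhibitor of TGF-beta signalling, had the most UMIs of them. It was at 325 CPM (157 UMIs) and 397 CPM (291 UMIs) in members and at 221 and 260 CPM in Mmp12-led cells, with ratios of 1.47 (1.2 to 1.79) and 1.53 (1.29 to 1.80). When the lead was decided after 2000 UMIs had been drawn from each cell, its log2 ratio was 0.15 and 0.20. Of 9 TGF-beta pathway genes compared, none was counted in either direction and the median log2 ratio was -0.13.

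**Figure D3:**
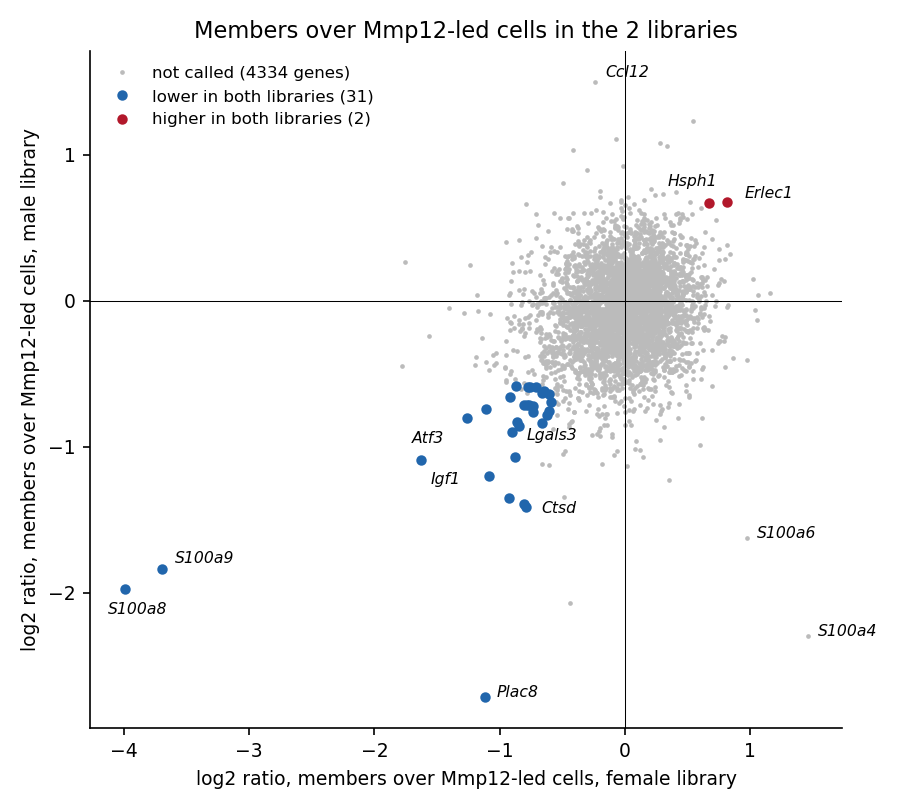
The log2 ratio of members over Mmp12-led cells for 4367 genes, after 10 CPM was added to each value, in the female library (horizontal) and the male library (vertical). Each point is a gene. The 31 genes lower in both libraries are blue, the 2 higher ones red, and S100a4 and S100a6 lie at the lower right because they were higher in female and lower in male members.

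Genes of lipid-associated macrophages, the state that takes up and stores lipids, mostly had lower levels in members. Of 17 genes of this list that were compared, 3 were counted as lower and none as higher, beside 0.71% lower and 0.0458% higher over all 4367 genes. The median log2 ratio was -0.53 beside -0.03 over all genes. Lgals3, which encodes the secreted lectin galectin-3, was at 610 CPM in female and 698 CPM in male members and at 1149 and 1310 CPM in Mmp12-led cells, a ratio of 0.53 in both libraries (0.47 to 0.60 and 0.48 to 0.59). Ctsd, the lysosomal protease cathepsin D, was at 438 and 278 CPM against 772 and 748 CPM (0.57, 0.49 to 0.66, and 0.37, 0.32 to 0.43). Both genes were spread over many cells, with Lgals3 found in 70 of 96 and 124 of 178 members. Pltp, the phospholipid transfer protein, was the third and rested on 24 and 26 UMIs in members. Without barcodes carrying other blood cell RNA Pltp was not counted and the tetraspanin Cd9 of the same list was. Trem2, the lipid-sensing receptor that drives this state, had ratios of 0.75 (0.61 to 0.91) and 0.58 (0.47 to 0.71), and the cholesterol exporter Abca1 0.43 (0.28 to 0.65) and 0.70 (0.51 to 0.95). Spp1 and Gpnmb, which mark this state elsewhere, were nearly absent, with 1 and 0 female and 2 and 0 male member UMIs.

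In related lists, Ctsd was the only gene counted. Among 16 cathepsin and lysosomal genes compared it was counted as lower, beside 0.71% over all genes compared. The median log2 ratio of the 16 was -0.20, beside -0.03 over all genes. Of 6 genes of cholesterol synthesis and uptake that could be compared, none was counted, and the median was -0.42. Complement genes outside the rule (7 compared, median -0.37) and integrins (10 compared, median -0.28) likewise gave no counted gene.

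Igf1, an insulin-like growth factor secreted by macrophages, was the 1 counted gene of 6 growth factors and cytokines, beside 0.71% counted as lower over all genes. It was at 80.6 CPM in female and 49.1 CPM in male members and at 182 and 126 CPM in Mmp12-led cells, with ratios of 0.44 (0.31 to 0.62) and 0.39 (0.26 to 0.57). Il1b, the inflammatory cytokine, had ratios of 0.61 (0.46 to 0.81) and 0.83 (0.67 to 1.01). Of the other genes counted as lower, Cd44, the hyaluronan receptor, stood at a ratio of 0.53 in both libraries. Ms4a7, a membrane protein of macrophages, was at 815 and 744 CPM against 1395 and 1225 CPM. The inhibitory receptor Clec12a stood at 0.59 in both libraries. Paox, a peroxisomal polyamine oxidase, had 12 and 11 member UMIs and ratios of 0.44 and 0.28, and Arhgap19 11 and 17 UMIs and ratios of 0.45 and 0.39. Fnip2, a partner of folliculin, had 6 and 19 UMIs and ratios of 0.28 and 0.49. Cln3, a lysosomal membrane protein on none of the lists, had 12 and 24 UMIs and ratios of 0.47 and 0.50, and was not counted without barcodes carrying other blood cell RNA. These 4 genes were sparse in members of both libraries. Among regulators, the stress-induced transcription factor Atf3 had 7 and 17 member UMIs and ratios of 0.22 (0.09 to 0.47) and 0.38 (0.21 to 0.66), and Id2, an inhibitor of helix-loop-helix factors, had ratios of 0.64 (0.49 to 0.81) and 0.56 (0.42 to 0.74). Id2 was the 1 counted gene of 19 macrophage transcription factors, beside the same 0.71% over all genes. The median log2 ratio of the 19 was -0.18, beside -0.03 over all genes. The growth factor, the lectin and the protease were therefore at or below 0.57 times the level of Mmp12-led cells in each library.

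The 3 lowest ratios rested on a few cells. S100a8, an alarmin of neutrophils, had 3 female and 6 male UMIs in members and 336 and 70 in Mmp12-led cells, of which 226 and 100 lay in 2 female cells and 64 in 1 male cell. S100a9, its partner, followed the same pattern. Plac8, a gene of monocytes, had 14 and 5 UMIs in members, while in Mmp12-led cells 5 barcodes accounted for 81.2% of its UMIs in the female and 90.4% in the male library. All 3 genes dropped out when barcodes with other blood cell RNA were left out.

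No antigen presentation gene outside the rule differed by 1.5-fold in both libraries. Of 5 class II genes compared, none was counted and the median log2 ratio was -0.03. Over all genes compared, 0.71% were counted as lower and 0.0458% as higher, with a median of -0.03. H2-DMa, which with H2-DMb1 forms the peptide exchange factor, had ratios of 1.02 (0.90 to 1.17) and 1.10 (0.99 to 1.22), and Ciita 0.91 (0.66 to 1.22) and 0.94 (0.74 to 1.18). Ctss (cathepsin S) had ratios of 0.91 (0.85 to 0.97) and 0.94 (0.89 to 1.0). Among 12 class I genes none was counted and the median was 0.06, with B2m, the class I light chain, at 3446 CPM in female and 3785 CPM in male members. Iron and heme genes outside the rule (10 compared, none counted, median -0.23), scavenger receptors (9, none, -0.11), interferon-stimulated genes (12, none, 0.00), chemokine receptors (9, none, 0.02), immediate early genes (12, of which Atf3 was lower, -0.14) and heat shock genes (10, of which Hsph1 was higher, 0.12) had medians closer to 0 than the lipid-associated list.

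Between the sexes, most member genes had levels within 2-fold of each other. Of 3297 genes with 50 or more UMIs over the members of both libraries, 32 were higher (0.971%) and 16 lower (0.485%) by 2-fold or more in female members, with the interval on the same side of 1. Without barcodes carrying other blood cell RNA, 17 of 3056 genes compared were higher and 13 lower. Of these, 12 and 12 were among the first counts. With the class II boundary at 20 the balance turned, with 17 higher and 23 lower, of which 11 and 8 were among the first counts. The NK cell genes moved with those barcodes. Gzma, the protease granzyme A, had 143 female and 6 male UMIs, and 15 female UMIs without them. Nkg7, a granule protein, went from 113 to 3 female UMIs and Gzmb (granzyme B) from 54 to 0. Ccl5, a chemokine of NK and T cells, was at 19.0 times (13 to 28.8) with those barcodes and 2.36 times (1.41 to 3.99) without. The calcium-binding proteins S100a6 and S100a4 were at 9.45 (6.36 to 14.5) and 10.3 times (5.83 to 19.5), and at 3.67 and 3.26 times without. Chil3, a monocyte gene, had 94 female UMIs, 48 of them in 1 barcode, and 2 male UMIs. Gzma, Nkg7, Gzmb, S100a4 and Chil3 were not counted without barcodes carrying other blood cell RNA, although the ratio of S100a4 was then still 3.26. A gene could drop out by falling under the floor of 50 UMIs as well as through its ratio.

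A group of genes outside these lineages was higher in female members with and without those barcodes. Ly6a, which encodes the surface protein Sca-1, was at 356 CPM (172 UMIs in 34 cells) in female and 73.7 CPM (54 UMIs in 21 cells) in male members, 4.82 times (3.53 to 6.68) and 5.67 times (4.14 to 7.87) without them, beside 2.02 times (1.58 to 2.61) in Mmp12-led cells. AA467197, a mitochondrial complex subunit gene also called Nmes1, was 4.78 times (3.18 to 7.35) as frequent, and 3.36 times (2.40 to 4.79) in Mmp12-led cells. Apoc2, the cofactor of lipoprotein lipase, was at 153 and 43.7 CPM (3.50 times, 2.28 to 5.48). These 3 genes were higher in the female library in both kinds of cells.

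Of 7 glucocorticoid-induced genes compared, 3 were higher in female members and none was lower, beside 0.971% higher and 0.485% lower over all 3297 genes. The median log2 ratio of the 7 was 0.78, beside 0.01 over all genes. Klf9, a transcription factor induced by steroid hormones, had 38 female and 13 male UMIs (4.43 times, 2.31 to 9.06). Ddit4, an inhibitor of mTORC1, was at 227 and 86.0 CPM (2.64 times, 1.92 to 3.66), and Fkbp5, a chaperone of the glucocorticoid receptor, at 159 and 69.6 CPM (2.29 times, 1.58 to 3.32). Tsc22d3, which encodes GILZ, was at 296 and 168 CPM (1.76 times, 1.37 to 2.26) and did not reach 2-fold. The metallothionein Mt1 was level at 1.02 times (0.87 to 1.19) and the receptor itself, Nr3c1, at 0.97 (0.61 to 1.52). Mmp12-led cells gave ratios of 4.07 for Klf9, 2.01 for Ddit4 and 2.09 for Fkbp5, so this was seen in both kinds of cells. Klf9 rested on few UMIs and was not counted when barcodes with other blood cell RNA were left out, since its 35 female and 13 male UMIs were then under the floor of 50, although its ratio was 5.12.

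**Figure D4:**
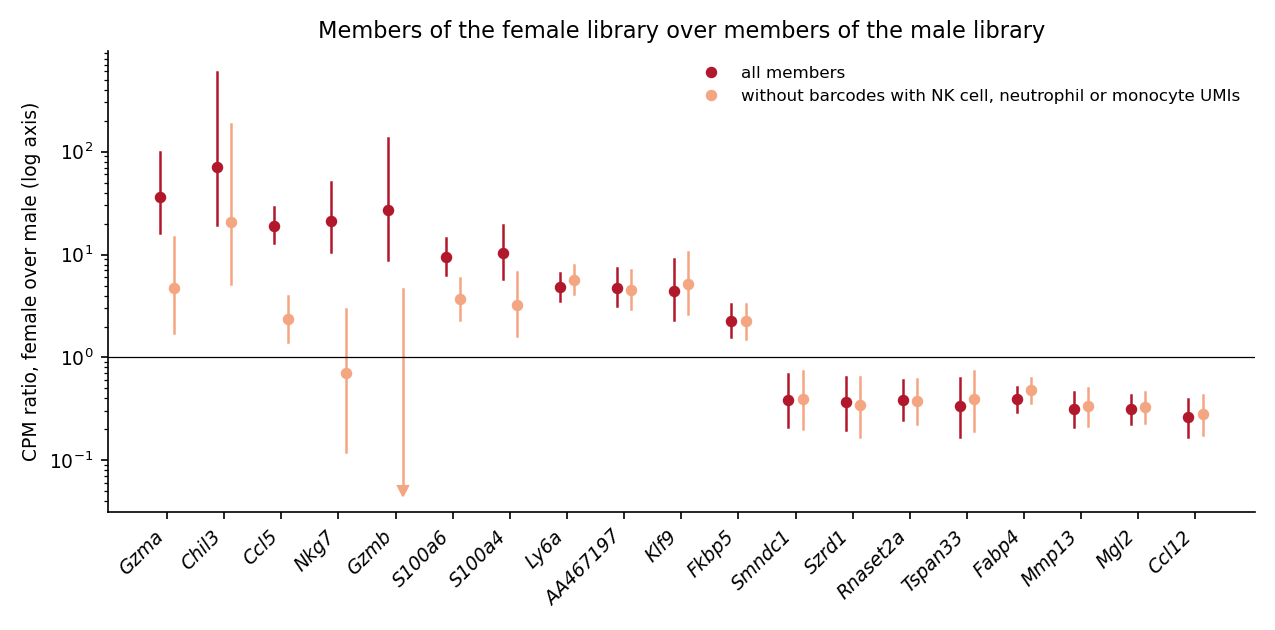
Ratio of CPM in female over male members on a log axis, for all members and without barcodes with NK cell, neutrophil or monocyte UMIs. Points are ratios of 1 library to the other and lines 95% counting intervals, and the triangle marks Gzmb, which had 0 female UMIs once those barcodes were left out. Ly6a, AA467197, Klf9 and Fkbp5 lie above 1 in both settings.

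Mgl2 and Irf8 were among the genes lower in female members. Mgl2, a C-type lectin of macrophages and dendritic cells, had 48 UMIs (99.2 CPM) in female and 230 UMIs (314 CPM) in male members, 0.32 times (0.23 to 0.43), and was 0.42 times in Mmp12-led cells. Irf8, a transcription factor of monocytes and dendritic cells, was at 174 and 359 CPM (0.48 times, 0.37 to 0.62). H2-DMb1 was at 521 and 833 CPM (0.63 times, 0.54 to 0.73), and did not reach 2-fold. The chemokine Ccl12 had 28 and 161 UMIs (0.26 times, 0.17 to 0.40), of which 59 of the male UMIs lay in 1 cell. The collagenase Mmp13 (33 and 158 UMIs) and the fatty acid carrier Fabp4 (70 and 270 UMIs) stood at 0.32 (0.21 to 0.46) and 0.39 (0.30 to 0.51), while both were close to level between the libraries in Mmp12-led cells, at 0.86 (0.73 to 1.02) and 1.01 (0.85 to 1.2). In male members 91 and 67 of the Fabp4 UMIs lay in 2 cells, and with a mitochondrial ceiling of 5% its log2 ratio was -0.17. Tspan33, Rnaset2a, Szrd1 and Smndc1, the other genes among the 8 lowest, had ratios between 0.339 and 0.391. Whether the sex ratios of members and of Mmp12-led cells differed was not tested.

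The 78 female trio-led cells at or below the class II boundary allowed members to be set against cells with the same leading genes and little class II RNA. This comparison was chosen after the values were seen, and only the female library had enough such cells. Tmem119 was at 225 CPM in members and 273 CPM below the boundary, and Col14a1 at 180 and 228 CPM. Zmynd15, the third gene of the trio, was at 221 and 155 CPM (1.42 times, 1.04 to 1.97). Of 2613 genes with at least 50 UMIs over both sets of cells, 68 were at least 1.5-fold higher (2.6%) and 148 at least 1.5-fold lower (5.66%) in members. A gene could reach this floor through either set alone. The part of the floor in these counts and in the list counts that follow was not tested. Without barcodes carrying other blood cell RNA (8 members and 13 of the 78), 50 of 2020 genes compared were higher and 115 lower. Of these, 31 and 83 were among the first. A gene could drop out by falling under the floor of 50 UMIs as well as through its ratio. With CPM computed without mitochondrial and class II UMIs, 87 were higher and 117 lower.

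Ciita and both H2-DM genes compared were higher in members. Of the 5 class II genes outside the rule that were compared, these 3 were counted as higher and none as lower, with a median log2 ratio of 1.10, beside 2.6% counted as higher and a median of -0.05 over all genes. Both sets of cells were cut on class II RNA and class II genes are switched on together, so this is a description and not a test. Ciita (ENSMUSG00000022504, mm10 chr16:10480059-10528418, plus strand) had 59 UMIs in 39 of 96 members and 2 UMIs in 1 of 78 cells below the boundary, or 122 and 4.71 CPM (25.9 times, 6.86 to 219). H2-DMb1 had 252 and 32 UMIs (6.92 times, 4.78 to 10.3) and H2-DMa 311 and 125 (2.19 times, 1.77 to 2.71). The other genes of the list were not counted, with Ctss at 0.86 times (0.79 to 0.93) and the lysosomal thiol reductase Ifi30 at 0.83 times (0.68 to 1.01). The used genes followed the boundary by construction, with H2-Aa at 7109 CPM in members and 233 CPM below.

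The promoters of class II genes share short elements, the S, X and Y boxes, at which the factors that recruit Ciita assemble. For genes of the class II region that were read here, the 120 bases before the RefSeq transcription start (GRCm38.p6) are shown 5′ to 3′ on the gene's own strand, with the Y box core TGATTGG, an inverted CCAAT box searched on both strands, in capitals. H2-Aa lies on the minus strand (chr17:34287824-34287943), and H2-Eb1 (chr17:34305747-34305866) and H2-DMb1 (chr17:34153071-34153190) on the plus strand.
H2-Aa: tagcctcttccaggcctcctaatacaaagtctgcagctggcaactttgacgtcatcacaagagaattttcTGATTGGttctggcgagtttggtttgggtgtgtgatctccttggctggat
H2-Eb1: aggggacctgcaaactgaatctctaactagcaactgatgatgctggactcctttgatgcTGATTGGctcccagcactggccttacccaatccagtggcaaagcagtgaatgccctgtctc
H2-DMb1: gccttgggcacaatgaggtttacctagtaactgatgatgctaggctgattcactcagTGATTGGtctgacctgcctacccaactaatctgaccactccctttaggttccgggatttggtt

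These promoters were chosen because their genes lay on both sides of the rule, H2-Aa and H2-Eb1 being used by it and H2-DMb1 not, and all 3 were higher in members than in trio-led cells below the boundary. The core began 50 bases before the start in H2-Aa, 61 in H2-Eb1 and 63 in H2-DMb1. It was found in 5.15% of 32851 RefSeq promoters over the same 120 bases. Among 15 promoter entries of genes that the rule used, it was in those of H2-Aa and H2-Eb1 only. H2-Ab1 and Cd74, the other class II genes of the rule, had no entry in the promoter set used and were not searched. The peptide exchange partner H2-DMa had no match in the 120 bases of either of its 2 promoter entries. H2-Oa and H2-Ob, which encode the inhibitor of H2-DM, had a match 45 and 59 bases before the start, and their RNAs were rare in members, with 2 and 4 UMIs in the female and 14 and 11 in the male library. H2-DMb2, a second H2-DM beta chain gene, had a match 92 bases before the start and 8 UMIs in members of each library, and H2-Eb2 a match 102 bases before it and 0 UMIs in members of both. A match is a sequence of letters and was not tested as a binding site. In the same 15 promoter entries of genes that the rule used, the motif GAGGAAGT of the macrophage factor PU.1 was searched on both strands over 250 bases before the start. It was in those of C1qc, Hpgds, Mmp12 and Retnla, and in 2.44% of all promoters. Tmem119, Col14a1, Zmynd15 and Slc40a1 had no entry in the promoter set used and were not searched.

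Ciita and H2-DMb1 were among the 12 highest of these 68 genes, and 4 more of the 12 were Clec4b1, Itgax, Mgl2 and Cd72. Clec4b1, a C-type lectin of dendritic cells, had 84 and 6 UMIs (12.3 times, 5.42 to 34.5). Itgax, which encodes CD11c, had 71 and 9 UMIs (6.93 times, 3.45 to 15.8), and Mgl2 had 48 and 9 (4.69 times, 2.27 to 10.9). The B cell and macrophage receptor Cd72 had 168 and 62 UMIs (2.38 times, 1.77 to 3.24). These lectins and CD11c were also found across Mmp12-led cells, where Itgax was at 213 CPM and Mgl2 at 109 CPM in the female library, against 21.2 CPM for each below the boundary. The other genes of the 12 were Gzmb, Sh2d1b1 (an adaptor of NK cells), Aqr, Safb2, Snrpa1 and the inhibitory receptor Cd300a, with ratios between 2.43 and 6.78. The NK cell genes Ncr1, Klrb1c, Nkg7 and Il2rb were higher as well, at 1.71 to 2.12 times. Without barcodes carrying other blood cell RNA Mgl2, Gzmb, Aqr, Safb2, Snrpa1 and these 4 NK cell genes were not counted. Of 3 co-stimulatory and checkpoint genes compared, none was higher, beside 2.6% higher and 5.66% lower over all genes. Havcr2 of this list, which encodes TIM-3, was lower with those barcodes and was not counted without them.

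Genes lower in members than below the boundary included F13a1, Stab1, Ctsd and Lyz2. F13a1, the coagulation factor XIII chain, had 12 UMIs in members and 106 UMIs below the boundary, found in 8 of 96 and 39 of 78 cells (0.10 times, 0.05 to 0.18). Stab1, a scavenger receptor, was at 380 and 878 CPM (0.43 times, 0.36 to 0.52), and Mertk at 57.9 and 134 CPM (0.43 times, 0.26 to 0.69). Of 8 scavenger and efferocytosis genes compared, 4 were lower and none higher, with a median log2 ratio of -0.45, beside 5.66% lower and a median of -0.05 over all genes compared, and Lrp1, 1 of the 4, was not counted without barcodes carrying other blood cell RNA. Ctsd (212 and 443 UMIs, 0.42 times, 0.36 to 0.50), Trem2 (125 and 174 UMIs, 0.63 times, 0.50 to 0.80), Apoc2 (0.43 times, 0.32 to 0.58) and Lyz2 (7529 and 12949 CPM, 0.58 times, 0.56 to 0.61) were lower as well. Of 15 cathepsin and lysosomal genes compared, 3 were lower, Ctsd and Grn (0.52 times, 0.44 to 0.61) among them, and none higher. Their median log2 ratio was -0.22, beside the same 5.66% lower and median of -0.05 over all genes. Ctsb (0.98), Ctsz (1.02) and Psap (0.99) were close to level. The lipid-associated list went both ways, with 4 of 16 genes lower, Ctsd, Trem2, Apoc2 and Abca1, and a median of -0.29. The 2 higher genes were the lysosomal lipase Lipa (1.52 times, 1.17 to 1.99) and the tetraspanin Cd63 (1.56 times, 1.29 to 1.88). Over all genes 5.66% were lower and 2.6% higher. Without barcodes carrying other blood cell RNA Cd63 was not counted and Lpl was counted as higher. Ctsd and Trem2, which were also lower than in Mmp12-led cells of the same library, therefore had their lowest level in members among these 3 sets. Ecm1, Capg, Fam117b, Gpx3, S100a6, Luzp1 and Card19, also among the 12 lowest, had ratios between 0.258 and 0.388, and Fam117b and Gpx3 were not counted without barcodes carrying other blood cell RNA.

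Chemokine genes gave the lowest ratio but rested on few cells. Cxcl2, which attracts neutrophils, had 7 UMIs in members and 132 below the boundary, 68 of them in 1 cell and 97.7% in 5 cells. Of 10 chemokine genes compared, 4 were lower and none higher, with a median log2 ratio of -0.35, beside 5.66% lower and a median of -0.05 over all genes, and Cxcl2 and Ccl2 were 2 of the 4. The monocyte markers Ly6c2, Chil3, Plac8, Ccr2, Ace and Treml4 summed to 434 CPM in members and 993 CPM below the boundary. Ccr2 gave 174 and 221 CPM of these sums. Below the boundary 10 of 78 cells had 10 or more UMIs of Ly6c2, Chil3 and Plac8, against 3 of 96 members. Cxcl2, Ccl2, Plac8 and Chil3 were not counted without barcodes carrying other blood cell RNA, and the part of monocyte RNA in the other differences was not tested.

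**Figure D5:**
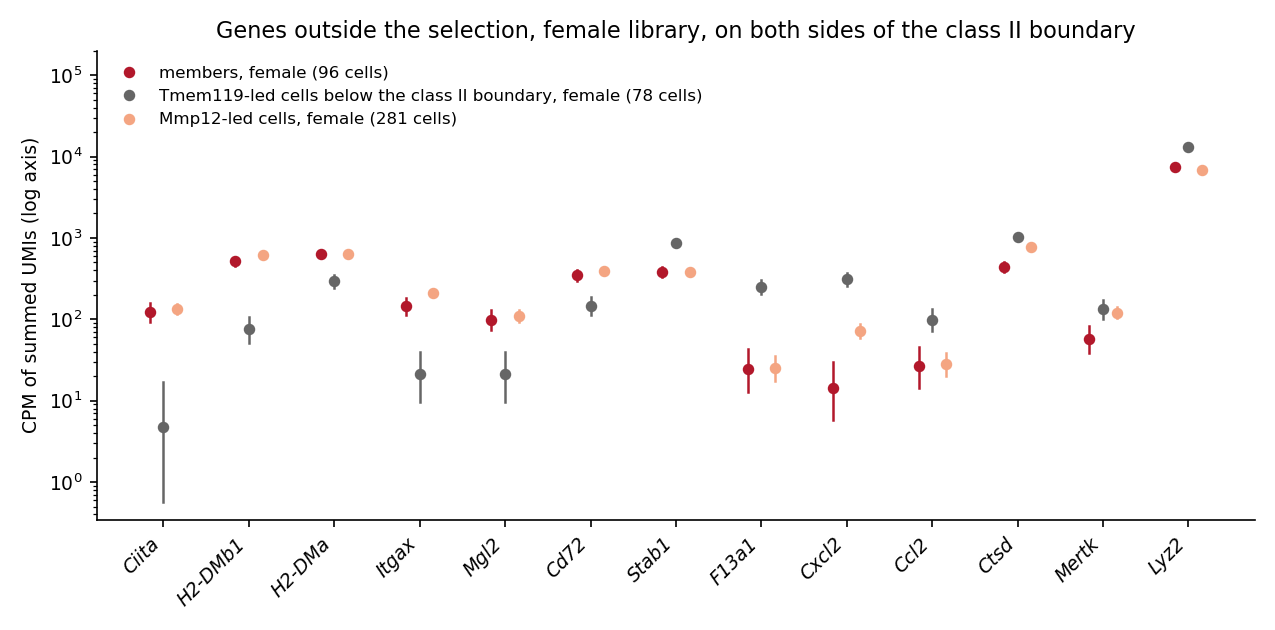
CPM of summed UMIs on a log axis in the female library, for 13 genes outside the rule, in members, in trio-led cells at or below the class II boundary and in Mmp12-led cells. Points are sums over the cells of 1 library and lines 95% counting intervals. Ciita, H2-DMb1, Itgax and Mgl2 lie lower below the boundary than in either kind of class II high cell, and F13a1, Stab1 and Lyz2 lie higher there.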

How the data were processed

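Per the labels, CD45+ DAPI- cells of adrenal glands were loaded on a droplet platform with 3′ v3.1 chemistry. They name Cell Ranger 4.0.0, DropletUtils 1.4.3 and Seurat 3.1.0, and the submitters' processing notes mm10. The authors deposited raw UMI counts per gene and barcode, not normalized. The members and lists were chosen with earlier results of these data known. Counts were summed over the cells of a part and library and divided by their total (CPM). Intervals were Clopper-Pearson for shares, Newcombe for their differences, exact Poisson for CPM and exact conditional binomial for ratios. With 1 library per sex no test across cells was run. Zero counts were given the limit of 3 counts. Genes of the rule were left out of counts of differing genes. Named genes were those of the rule and Apoe, the 12 highest and 12 lowest against Mmp12-led cells by the library closest to 0, up to 4 per list, and the 8 highest and 8 lowest between sexes, and the genes described against cells below the boundary and the glucocorticoid genes were chosen after their values were seen. The counting of differing genes was tried on simulated sums with known changes and no spread between cells, and the intervals themselves were not tested. GENCODE M21 held 32235 of the 32285 genes and promoters came from RefSeq. The study removed doublets and, by its methods, cells above 1.2% mitochondrial UMIs, a ceiling that left 327 of 3963 female and 359 of 2685 male barcodes of the deposited tables, far fewer than it analysed. Here no doublet was removed, and Scrublet scores (scanpy 1.11.5), the 1.2% ceiling and other settings were alternatives. Python 3.11.15, numpy 2.4.6, scipy 1.17.1, pandas 2.3.3 and matplotlib 3.10.9 were used.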

Additional observations from a re-analysis of the deposited data

Results flagged for a closer look

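The genes below were at least 1.5-fold higher in members than in Mmp12-led cells of 1 library and at least 1.5-fold lower in the other, with both intervals away from 1. The difference between the libraries was not tested. S100a4, a calcium-binding protein of motile and myeloid cells, was 3.02 times as frequent in female members (95 UMIs) and 0.144 times in male members (14 UMIs), and S100a6, of the same family, 2.02 and 0.278 times. The sugar transporter Slc50a1 stood at 1.64 and 0.510 times, and the nuclear envelope protein Syne1 at 1.67 and 0.429 times. The other 2 genes went the other way, Dppa3, known from early embryos, at 0.488 and 1.76 times, and the splicing factor Smndc1 at 0.546 and 1.60 times. Without barcodes carrying NK cell, neutrophil or monocyte RNA, the opposite directions were still met by S100a4, Slc50a1 and Dppa3 and not by S100a6, Syne1 and Smndc1. In Mmp12-led cells of the male library, the 5 highest cells held 81.5% of the S100a4 UMIs.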

How the results depend on the processing

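No paired analysis was possible because each sex had 1 library. With the mitochondrial ceiling of 1.2%, 4 female and 15 male members were left, the male share of the gate was 22.7%, the female class II median 15.7 in 1000, the 3 female co-detection differences all -12.5 points, the male difference of Col14a1 with Zmynd15 3.60 points, and 1 gene was higher and 0 lower against Mmp12-led cells (49 genes compared) and 2 higher and 12 lower in female members (169 compared), none of them among the 32 and 16. When 2 UMIs were needed to lead, the shares were 12.9% and 19.7% and 1 gene was higher against Mmp12-led cells. With class II above 20, the female share was 14.5% and median 45.3, 1 gene was higher against Mmp12-led cells, 17 were higher and 23 lower in female members (11 and 8 among the 32 and 16) and the female log2 ratio of Hsph1 against Mmp12-led cells was -0.58. With the lead decided at 2000 UMIs, the male class II median was 61.4, 4 genes were higher against Mmp12-led cells and 18 in female members. Co-detection at that depth gave 3.88, 5.79 and 2.56 points in female and 6.47, -0.144 and -0.667 points in male gated cells. The ceiling of 5% gave 1 gene higher against Mmp12-led cells, and leaving out the highest Scrublet scores 21 higher in female members. A floor of 200 UMIs gave 0 higher and 12 lower against Mmp12-led cells, 7 higher and 3 lower in female members, and 10 higher and 33 lower against cells below the boundary. Adding 50 CPM gave 0 and 10, 17 and 4, and 31 and 68. Leaving out barcodes of other blood cells, chosen after seeing the data, gave 0 higher against Mmp12-led cells and 17 higher in female members. A higher floor or added value counts fewer genes by construction, and for the other changes the cause was not tested. These counts do not hold the same genes. Of the 4 higher and 33 lower against Mmp12-led cells at 2000 UMIs, 0 and 12 were among the 2 and 31, of 1 and 24 with class II above 20, 0 and 15, and of 2 and 28 without the highest Scrublet scores, 0 and 22. Of 306 values of named genes against Mmp12-led cells 299 moved by less than their interval, of 112 between the sexes 90, and of 212 list medians 204. A named gene gave no value in a setting where it fell under the floor of 50 UMIs. The floor of 200 UMIs was left out for named genes. These tallies therefore do not cover settings in which a named gene was lost. Depth limits genes with few UMIs, the trio included, and 1 library per sex leaves the spread between animals unknown.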
